A study of Mus musculus with 23 samples.

Results

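The 9 genes described here encode proteins linked to the entry, handling and exit of platinum drugs in cells. They are the copper transporters Slc31a1 and Slc31a2, the copper chaperone Atox1, the copper pumps Atp7a and Atp7b, the organic cation transporters Slc22a2 and Slc22a3, and the export proteins Slc47a1 and Abcc2. They were listed by name, with earlier results of these data known. All 9 were found by gene symbol among the 29894 genes listed for at least 1 tissue. The study gave C57BL/6 mice, an inbred laboratory strain, either oxaliplatin at 10 mg/kg or vehicle, and took tissue after 8 weeks. Oxaliplatin is a platinum drug used against colorectal cancer. RNA was sequenced from tibialis anterior, a fast muscle of the shin, with 5 oxaliplatin and 4 vehicle libraries, from subcutaneous white fat with 4 oxaliplatin and 3 vehicle libraries, and from hypothalamus, a brain region that governs feeding, also with 4 and 3. The library titles number the mice within a treatment. No genotype other than the strain is named, and the labels give neither the age of the mice nor how often they were dosed.

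Copper enters cells as a reduced ion through SLC31A1, also called CTR1, and is passed by the chaperone ATOX1 to the ATPases ATP7A and ATP7B, which load copper enzymes in the Golgi and pump surplus copper out. Platinum drugs can bind several of these proteins, and changes in their amounts have been linked to drug sensitivity in cultured cells. Organic cation transporters of the SLC22 family take up positively charged compounds, oxaliplatin among them, while the antiporter SLC47A1 and the ATP-driven pump ABCC2 move compounds out of cells.

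Library depth, marker genes and separate libraries bear on the values that follow. Total counts were 22.4 to 32.2 M (mega counts) in oxaliplatin and 27.3 to 31.2 M in vehicle muscle libraries. They were 16.5 to 18.0 M against 16.9 to 22.7 M in fat, and 23.6 to 26.4 M against 27.3 to 28.5 M in hypothalamus. Marker genes fitted the tissue labels, with summed skeletal muscle markers of at least 135130 counts per M (CPM) in muscle, adipocyte markers of at least 18616 CPM in fat and neuron markers of at least 3675 CPM in hypothalamus. In fat, vehicle mouse 4 carried 125340 CPM of skeletal muscle markers, against 16.5 to 3075 CPM in the other 6 fat libraries. Oxaliplatin mouse 5 also stood apart in fat, with 10596 CPM of fibroblast markers, against 749 to 1246 CPM in the other 3 oxaliplatin libraries and 5978 to 8018 CPM in the vehicle libraries. It was the highest fat library in lymphocyte markers too, at 299 CPM against 16.9 to 92.3 CPM in the other 6. The same held for erythroid markers, at 1574.5 CPM against 208 to 938 CPM. One muscle library, titled as oxaliplatin mouse 5, is entered as vehicle under treatment. Because the title and the group sizes given by the submitters place it with oxaliplatin, it was kept there. The fat library that stood apart carries the same mouse number. The hypothalamus library of that number had 1337 CPM of erythroid markers. Other oxaliplatin libraries there had 75.5 to 254 CPM and vehicle libraries 646 to 913 CPM. Its endothelial sum was 376 CPM, against 215 to 231 CPM in vehicle libraries. Mouse 5 was set to vehicle for muscle only, and whether the doubt extends to its other libraries was not tested.

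In fat, the oxaliplatin and vehicle groups did not overlap for 4 of 8 tested members, where they did not overlap for 21.5% of all tested genes. Slc22a3, an uptake transporter for organic cations, was lower in all 4 oxaliplatin libraries than in all 3 vehicle libraries, at 21.5 ± 21.9 CPM against 97.4 ± 21.7 CPM (mean ± SD). The copper genes Slc31a1, Slc31a2 and Atp7a were higher in every oxaliplatin fat library than in any vehicle library, with fitted ratios between the groups of 1.12 to 1.33 and, for Slc31a2 and Atp7a, a narrow margin between the nearest libraries. None of these differences passed the test given next. In muscle and hypothalamus the groups overlapped for every listed member, where they did not overlap for 3.89% and 9.93% of all tested genes. In bulk tissue, fewer cells of a type and less RNA per cell cannot be told apart.

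Across the 3 tissues no member passed the test for a difference between oxaliplatin and vehicle, which was an edgeR quasi-likelihood adjusted p under 0.05 over all genes tested in the tissue. In muscle 0 of 6 tested members passed, where 0.163% of all tested genes did. In fat 0 of 8 passed, where 0% did, and in hypothalamus 0 of 8 passed, where 0.148% did. At an unadjusted p under 0.05 0 members lay in muscle, 5 in fat and 0 in hypothalamus, against 9.59%, 26.1% and 10.2% of all genes tested in those tissues. By DESeq2, an alternative count model, 0, 1 and 0 members passed the adjusted threshold in muscle, fat and hypothalamus, in fits that called 254, 2434 and 262 of all genes, and by limma-voom 0 passed in each. The members that were not tested were Atp7b, Slc22a2 and Abcc2 in muscle, which are not listed there, Atp7b in fat and Abcc2 in hypothalamus, which lay below the filter on low counts.

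**Figure D1:**
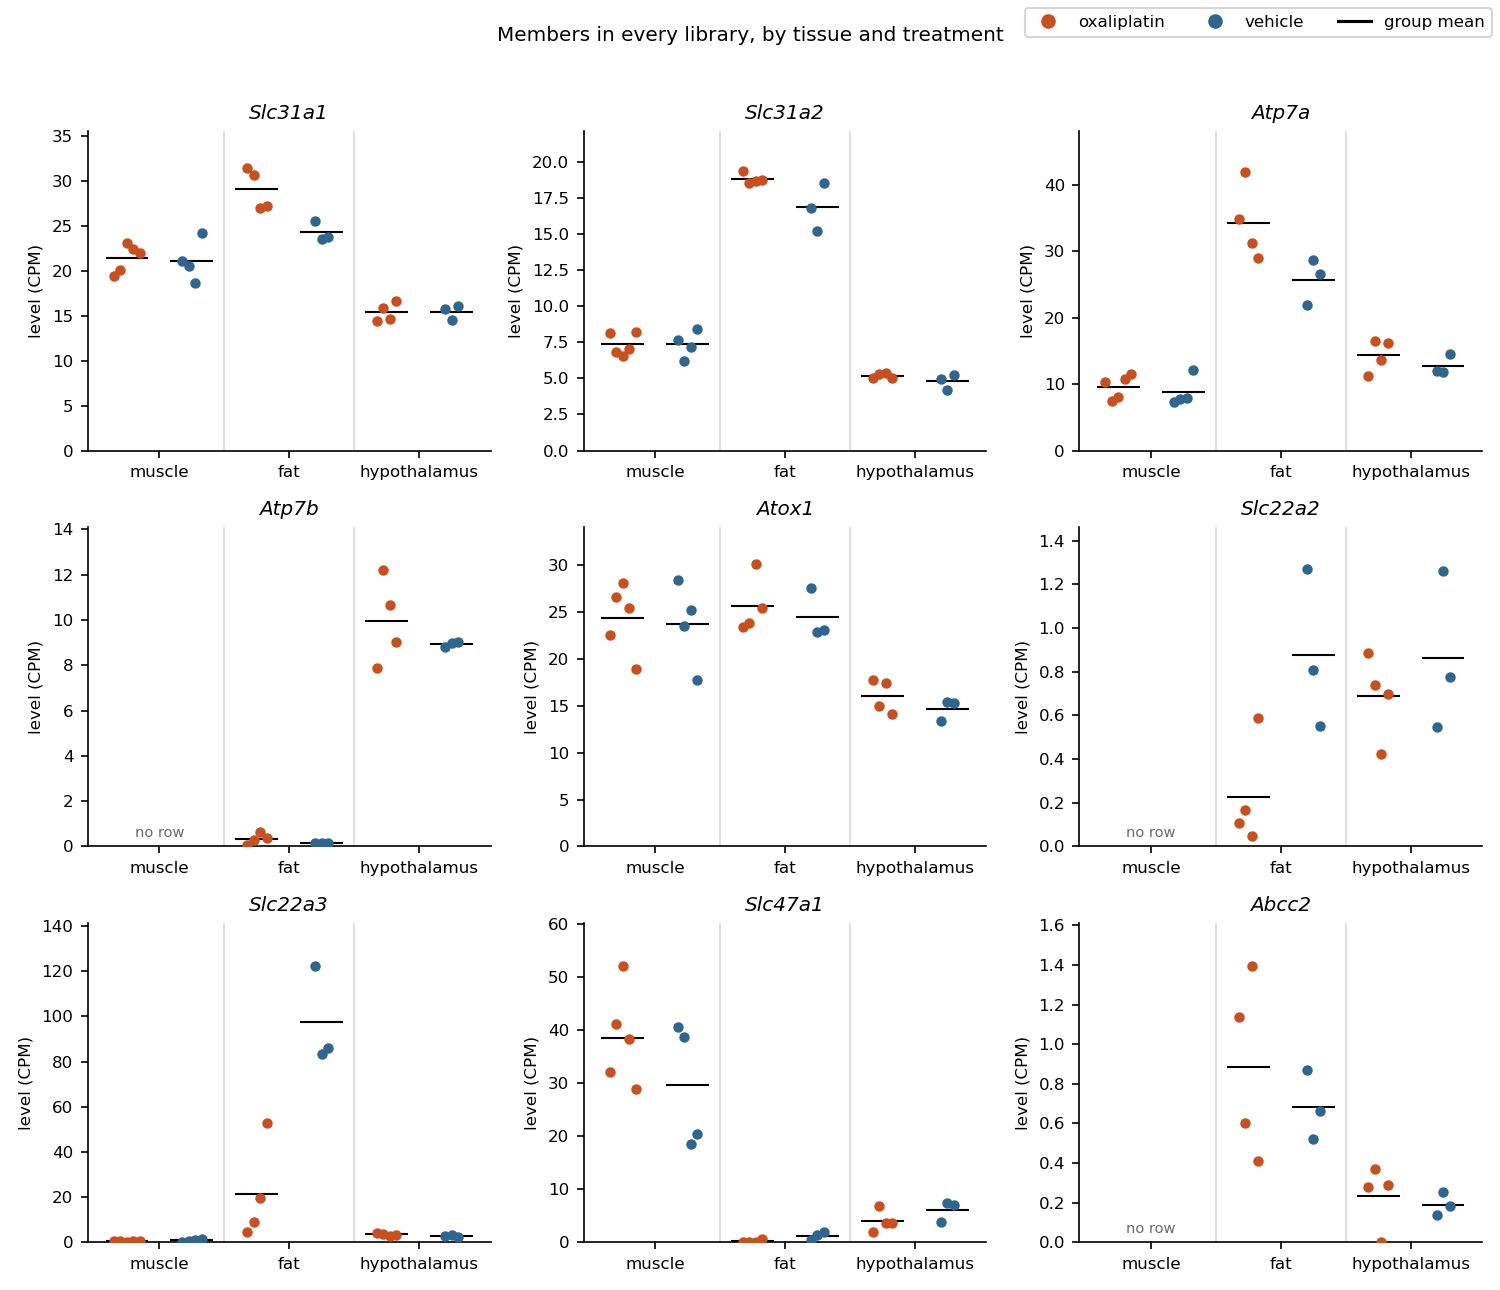
The level of each of the 9 genes in every library, in CPM, with oxaliplatin libraries left of vehicle libraries in each tissue and a line at the group mean; "no row" marks a gene that is not listed for muscle. Slc22a3 in fat spans 4.65 to 52.9 CPM in oxaliplatin libraries and 83.6 to 122 CPM in vehicle libraries, and Slc31a1 in fat spans 27.0 to 31.5 CPM in oxaliplatin libraries and 23.5 to 25.6 CPM in vehicle libraries.

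The copper importer Slc31a1 (ENSMUSG00000066150) and the related Slc31a2 (ENSMUSG00000066152), whose product acts on copper held in endosomes, are neighbours on chromosome 4 of GRCm38. Slc31a2 lies at chr4:62262562-62298411 and Slc31a1 at chr4:62360727-62391769, both on the plus strand. In fat Slc31a1 had 31.5, 30.7, 27.0 and 27.3 CPM in oxaliplatin mice 2 to 5, against 25.6, 23.5 and 23.8 CPM in vehicle mice 1, 2 and 4. Every oxaliplatin library was above every vehicle library, with a log2 fold change of 0.26 ± 0.11 (SE, unadjusted p = 0.0477, edgeR adjusted p = 0.189). Slc31a2 had 19.4, 18.56, 18.7 and 18.8 CPM in oxaliplatin fat, against 16.8, 15.2 and 18.55 CPM in vehicle fat. The groups were again apart, but only by the gap between 18.56 CPM in oxaliplatin mouse 3 and 18.55 CPM in vehicle mouse 4 (0.16 ± 0.12, edgeR adjusted p = 0.396).

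In muscle and hypothalamus both Slc31a1 and Slc31a2 were close to their vehicle levels and the groups overlapped. Slc31a1 averaged 21.4 ± 1.57 CPM in oxaliplatin muscle and 21.1 ± 2.30 CPM in vehicle muscle (SD, n = 5 and 4), and the 95% interval of the log2 fold change was -0.22 to 0.26. In hypothalamus it averaged 15.4 ± 1.03 CPM with oxaliplatin and 15.5 ± 0.799 CPM with vehicle (n = 4 and 3), with an interval of -0.24 to 0.23. Slc31a2 averaged 7.36 ± 0.782 CPM in oxaliplatin and 7.37 ± 0.915 CPM in vehicle muscle, with an interval of -0.30 to 0.30. Its hypothalamic level was 5.20 ± 0.174 CPM with oxaliplatin and 4.79 ± 0.528 CPM with vehicle, with an interval of -0.22 to 0.45.

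Atox1 (ENSMUSG00000018585, chr11:55446641-55461239, minus strand), which carries copper from the importer to the pumps, had the smallest log2 fold change of the tested members in fat. Its level was 23.4, 23.8, 30.1 and 25.4 CPM in oxaliplatin mice 2 to 5 and 27.5, 22.8 and 23.1 CPM in vehicle mice 1, 2 and 4. The groups overlapped, with a log2 fold change of 0.07 ± 0.14 and a 95% interval of -0.25 to 0.39. In muscle Atox1 averaged 24.3 ± 3.63 CPM with oxaliplatin and 23.7 ± 4.46 CPM with vehicle, with an interval of -0.30 to 0.37. In hypothalamus it averaged 16.0 ± 1.82 CPM with oxaliplatin and 14.7 ± 1.17 CPM with vehicle, with an interval of -0.15 to 0.40.

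Atp7a (ENSMUSG00000033792, chrX:106027276-106124926, plus strand) encodes the copper pump of most tissues outside the liver. In fat it had 34.8, 42.0, 31.3 and 28.9 CPM in oxaliplatin mice 2 to 5, against 21.96, 28.7 and 26.5 CPM in vehicle mice 1, 2 and 4. All 4 oxaliplatin libraries were above all 3 vehicle libraries, the lowest by a narrow margin (log2 fold change 0.41 ± 0.17, unadjusted p = 0.0395, edgeR adjusted p = 0.175). In muscle Atp7a averaged 9.62 ± 1.78 CPM with oxaliplatin and 8.77 ± 2.21 CPM with vehicle (0.13 ± 0.19, edgeR adjusted p = 0.909). In hypothalamus it averaged 14.4 ± 2.44 CPM with oxaliplatin and 12.8 ± 1.56 CPM with vehicle (0.17 ± 0.16, edgeR adjusted p = 0.715). The muscle and hypothalamic groups overlapped.

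Atp7b (ENSMUSG00000006567, chr8:21992785-22060305, minus strand), the copper pump best known from liver and from Wilson disease in humans, is not listed for muscle, was nearly absent from the fat counts and was present in hypothalamus. There it had 7.89, 12.2, 10.6 and 9.05 CPM in oxaliplatin mice 2 to 5 and 8.79, 9.00 and 9.01 CPM in vehicle mice 1, 2 and 4. The oxaliplatin libraries lay on both sides of the tightly grouped vehicle libraries (0.16 ± 0.16, edgeR adjusted p = 0.746). In fat it was at the edge of detection, with 1, 5, 13 and 6 counts in the oxaliplatin libraries and 2, 3 and 3 counts in the vehicle libraries.

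Slc31a1, Slc31a2 and Atp7a are the members whose fat groups were apart with higher values in oxaliplatin libraries, and Slc22a3 the member whose groups were apart with lower ones, so the sequence before a start site is shown for genes of each kind. Each is the 250 bases before the RefSeq start on GRCm38.p6, 5′ to 3′ on the gene's strand, with the GC box GGGCGG, a motif bound by Sp1-type factors, in capitals where it occurs on either strand.
Slc31a1, chr4:62360451-62360700, plus strand: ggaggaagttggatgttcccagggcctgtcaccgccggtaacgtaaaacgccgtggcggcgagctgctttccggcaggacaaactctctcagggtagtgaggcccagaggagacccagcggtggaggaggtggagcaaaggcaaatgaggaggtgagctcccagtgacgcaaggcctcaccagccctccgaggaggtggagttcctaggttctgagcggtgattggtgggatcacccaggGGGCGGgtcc
Atp7a, chrX:106026974-106027223, plus strand: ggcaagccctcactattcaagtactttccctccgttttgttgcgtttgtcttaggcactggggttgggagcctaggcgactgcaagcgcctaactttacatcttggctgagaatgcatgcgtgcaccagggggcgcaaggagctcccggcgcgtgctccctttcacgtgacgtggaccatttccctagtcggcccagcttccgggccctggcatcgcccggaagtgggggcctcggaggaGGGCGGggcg
Slc22a3, chr17:12507705-12507954, minus strand: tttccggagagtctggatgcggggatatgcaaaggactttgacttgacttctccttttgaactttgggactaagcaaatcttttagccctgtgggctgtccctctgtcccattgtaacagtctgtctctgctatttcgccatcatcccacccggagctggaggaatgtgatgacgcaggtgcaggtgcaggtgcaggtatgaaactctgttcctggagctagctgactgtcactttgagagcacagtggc
The windows of Slc31a1 and Atp7a hold 1 GC box each, and that of Slc22a3 holds none, where 32.9% of all 27025 RefSeq windows of this length hold at least 1. The window of Slc31a2, also higher in every oxaliplatin fat library, holds none, and that of Atox1, whose fat groups overlapped, holds 1. Those of Atp7b, Slc22a2 and Abcc2 hold none, so the motif did not follow the direction in fat. Across the 8 members with a RefSeq window (Slc47a1 had no entry), the observed over expected ratio of CpG was 0.552 for Slc31a1, 0.921 for Slc31a2, 0.742 for Atp7a, 0.793 for Atp7b and 0.631 for Atox1. It was 0.362 for Slc22a2, 0.307 for Slc22a3 and 0.078 for Abcc2, and the median of all windows was 0.378. The 5 copper genes are thus above that median and the 3 drug transporters below it. The core of the metal response element, searched as TGCGCNC and TGCACNC on both strands, occurred in 21.3% of all windows, with 1 match for Slc31a2, 2 for Atp7a and 1 for Atp7b. The TATA box TATAAA occurred in 13.0% of all windows and in none of the 8. These matches describe the letters and not binding.

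Slc22a3 (ENSMUSG00000023828, chr17:12418960-12507704, minus strand) encodes OCT3, a transporter of organic cations that takes up catecholamines, histamine and drugs, and it was the member whose fat groups were apart with lower values in oxaliplatin libraries. Its level was 4.65, 8.89, 19.5 and 52.9 CPM in oxaliplatin mice 2 to 5, against 122, 83.6 and 86.2 CPM in vehicle mice 1, 2 and 4. Every oxaliplatin library was below every vehicle library, but the oxaliplatin libraries differed from one another by more than 10 times. The mean was 21.5 ± 21.9 CPM with oxaliplatin and 97.4 ± 21.7 CPM with vehicle, and the fitted ratio was 0.220 (log2 fold change -2.18 ± 0.74, 95% interval -3.92 to -0.44). With that spread the difference did not pass (unadjusted p = 0.0208, edgeR adjusted p = 0.143).

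Library composition differed among the fat libraries. Oxaliplatin mouse 5, the highest oxaliplatin library in Slc22a3, was the library with 10596 CPM of the 10 fibroblast markers, and it had 27904 CPM of the 10 adipocyte markers, against 18616 to 22434 CPM in the other oxaliplatin libraries. The vehicle libraries had 23988 to 31629 CPM of adipocyte markers. In oxaliplatin mice 2, 3 and 4 the adipocyte sum fell in that order (22434, 21627 and 18616 CPM) while Slc22a3 rose (4.65, 8.89 and 19.5 CPM). The fibroblast sum in those mice was 749, 1246 and 1086 CPM, against 5978 to 8018 CPM in the vehicle libraries, so it was lower where Slc22a3 was lower. The part of these differences in the Slc22a3 result was not tested. Without oxaliplatin mouse 5 the log2 fold change of Slc22a3 was -3.14 ± 0.55 (edgeR adjusted p = 0.0122), in a fit that called 4969 genes in all, and by DESeq2 with every library the adjusted p was 0.0204, in a fit that called 2434. Leaving out the highest oxaliplatin library lowers the mean of that group by definition. Leaving out vehicle mouse 4 gave -2.24 (edgeR adjusted p = 0.271). A stretch of 420 exon bases is shared with Plg on the opposite strand, and Plg is not listed for fat or muscle.

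Slc22a2 (ENSMUSG00000040966, chr17:12584132-12628488, plus strand), a neighbour of Slc22a3, encodes OCT2, known for drug uptake in the kidney and for oxaliplatin uptake in sensory neurons of mice. It was scarce in fat, with 2, 3, 1 and 10 counts (0.108, 0.165, 0.0481 and 0.588 CPM) in oxaliplatin mice 2 to 5, against 19, 14 and 10 counts (1.27, 0.809 and 0.550 CPM) in vehicle mice 1, 2 and 4. Oxaliplatin mouse 5 reached into the vehicle range and the other 3 oxaliplatin libraries were below it (-1.95 ± 0.72, unadjusted p = 0.0281, edgeR adjusted p = 0.154). In hypothalamus it had 0.886, 0.740, 0.423 and 0.699 CPM in oxaliplatin mice 2 to 5 and 0.547, 1.26 and 0.775 CPM in vehicle mice 1, 2 and 4. Those groups overlapped widely (-0.32 ± 0.39, edgeR adjusted p = 0.785). Counts this low carry a wide counting error beside the spread between mice.

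Outside fat, Slc22a3 was low and its groups overlapped. In muscle it had 0.656, 0.833, 0.300, 0.600 and 0.594 CPM in oxaliplatin mice 1 to 5 and 0.287, 0.652, 0.908 and 1.64 CPM in vehicle mice 1 to 4 (-0.56 ± 0.45, edgeR adjusted p = 0.792). In hypothalamus it had 3.99, 3.87, 3.04 and 3.29 CPM in oxaliplatin mice 2 to 5 and 2.80, 3.46 and 2.44 CPM in vehicle mice 1, 2 and 4 (0.29 ± 0.20, edgeR adjusted p = 0.635). The estimate in hypothalamus was above 0 and that in fat below it.

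Slc47a1 (ENSMUSG00000010122, chr11:61343401-61378345, minus strand) encodes MATE1, an antiporter that passes organic cations out of kidney and liver cells. In fat it was near the detection limit with oxaliplatin, with 0, 2, 2 and 12 counts (0, 0.110, 0.0962 and 0.705 CPM) in oxaliplatin mice 2 to 5, against 6, 23 and 34 counts (0.401, 1.33 and 1.87 CPM) in vehicle mice 1, 2 and 4. A count of 0 in oxaliplatin mouse 2 allows up to 0.162 CPM, taken as 3 counts and covering counting error only. Oxaliplatin mouse 5 lay above vehicle mouse 1, so the groups overlapped (-2.42 ± 0.97, unadjusted p = 0.0392, edgeR adjusted p = 0.175). The highest value was in vehicle mouse 4, the library with 125340 CPM of skeletal muscle markers, and Slc47a1 stood at 18.6 to 52.2 CPM in the muscle libraries; the part of muscle RNA in that value was not tested. Without that library the log2 fold change was -1.93 ± 1.14 (edgeR adjusted p = 0.384).

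In muscle, Slc47a1 had 32.2, 41.3, 52.2, 38.4 and 28.9 CPM in oxaliplatin mice 1 to 5, against 40.7, 38.8, 18.6 and 20.5 CPM in vehicle mice 1 to 4. Vehicle mice 1 and 2 lay within the oxaliplatin range and vehicle mice 3 and 4 below it (0.38 ± 0.26, edgeR adjusted p = 0.729). The same vehicle mice 3 and 4 had 1118 and 1693 CPM of fibroblast markers in muscle. Vehicle mice 1 and 2 had 514 and 609 CPM, and the oxaliplatin libraries 398 to 800 CPM. The part of this difference in the Slc47a1 values was not tested. In hypothalamus Slc47a1 had 2.01, 6.79, 3.69 and 3.66 CPM in oxaliplatin mice 2 to 5, against 3.90, 7.45 and 7.01 CPM in vehicle mice 1, 2 and 4. Of the oxaliplatin libraries, 3 were below all vehicle libraries and mouse 3 was inside their range (-0.60 ± 0.38, edgeR adjusted p = 0.614). Mouse 3 also had the highest sum of the 12 meningeal and perivascular fibroblast markers, 793 CPM, against 345 to 373 CPM in the other oxaliplatin libraries and 312 to 521 CPM in vehicle libraries. Its part in the result was not tested.

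Abcc2 (ENSMUSG00000025194, chr19:43782192-43840740, plus strand) encodes MRP2, a pump that exports glutathione and glucuronide conjugates into bile. It was scarce wherever it was listed. In fat it had 1.14, 0.604, 1.39 and 0.412 CPM in oxaliplatin mice 2 to 5 and 0.868, 0.520 and 0.660 CPM in vehicle mice 1, 2 and 4, with overlapping groups (0.39 ± 0.48, edgeR adjusted p = 0.612). In hypothalamus it had 7, 9, 0 and 7 counts with oxaliplatin and 4, 7 and 5 counts with vehicle, too few to be tested.

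**Figure D2:**
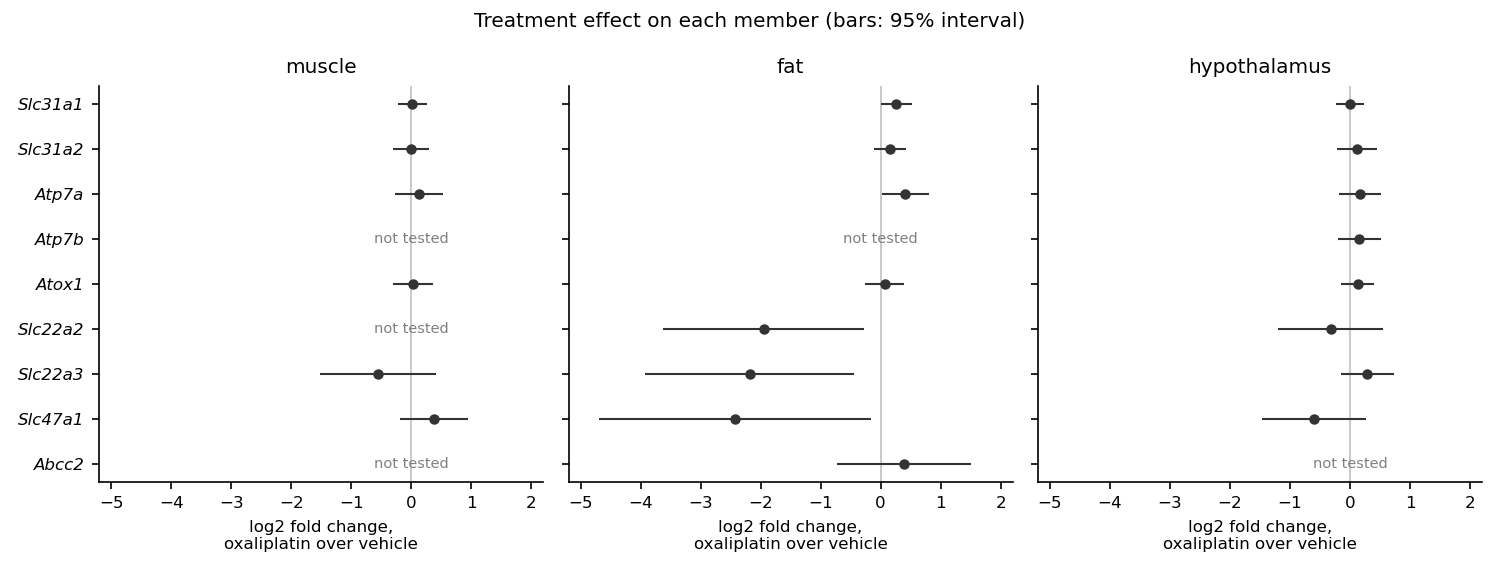
The log2 fold change of oxaliplatin over vehicle for each gene in each tissue, with bars for the 95% interval; "not tested" marks genes that are not listed or lay below the filter. In fat the estimates of Slc22a2, Slc22a3 and Slc47a1 lie at -1.95, -2.18 and -2.42 with wide intervals, and all other estimates lie between -0.60 and 0.41.

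Counted over the 8 tested members in fat, the groups did not overlap in 4, namely Slc31a1, Slc31a2 and Atp7a, which were higher in every oxaliplatin library, and Slc22a3, which was lower. Over all 19870 tested fat genes the groups did not overlap in 21.5%, with 10.3% higher and 11.2% lower. The corresponding member counts were 0 of 6 in muscle, where 3.89% of all genes were apart, and 0 of 8 in hypothalamus, where 9.93% were. Without oxaliplatin mouse 5 the fat count was 6 of 8, with Slc22a2 and Slc47a1 added as lower, but the share over all genes was then 46%. Without vehicle mouse 4 it was 5 of 8 with 30.6% of all genes, and without both libraries 6 of 8 with 55.4%. With both left out, Slc22a2 (-3.22 ± 0.60, edgeR adjusted p = 0.0152) and Slc22a3 (-3.22 ± 0.57, edgeR adjusted p = 0.0185) passed the test, in a fit that called 4087 of 20332 genes. This pair was left out after the data were seen, and oxaliplatin mouse 5 was the highest oxaliplatin library for both genes. Its removal therefore lowers the oxaliplatin mean by the choice itself, and these p values do not stand as separate support. The list's median log2 fold change was 0.03 in muscle, 0.11 in fat and 0.12 in hypothalamus, against -0.01, 0.03 and 0.01 over all tested genes.

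**Figure D3:**
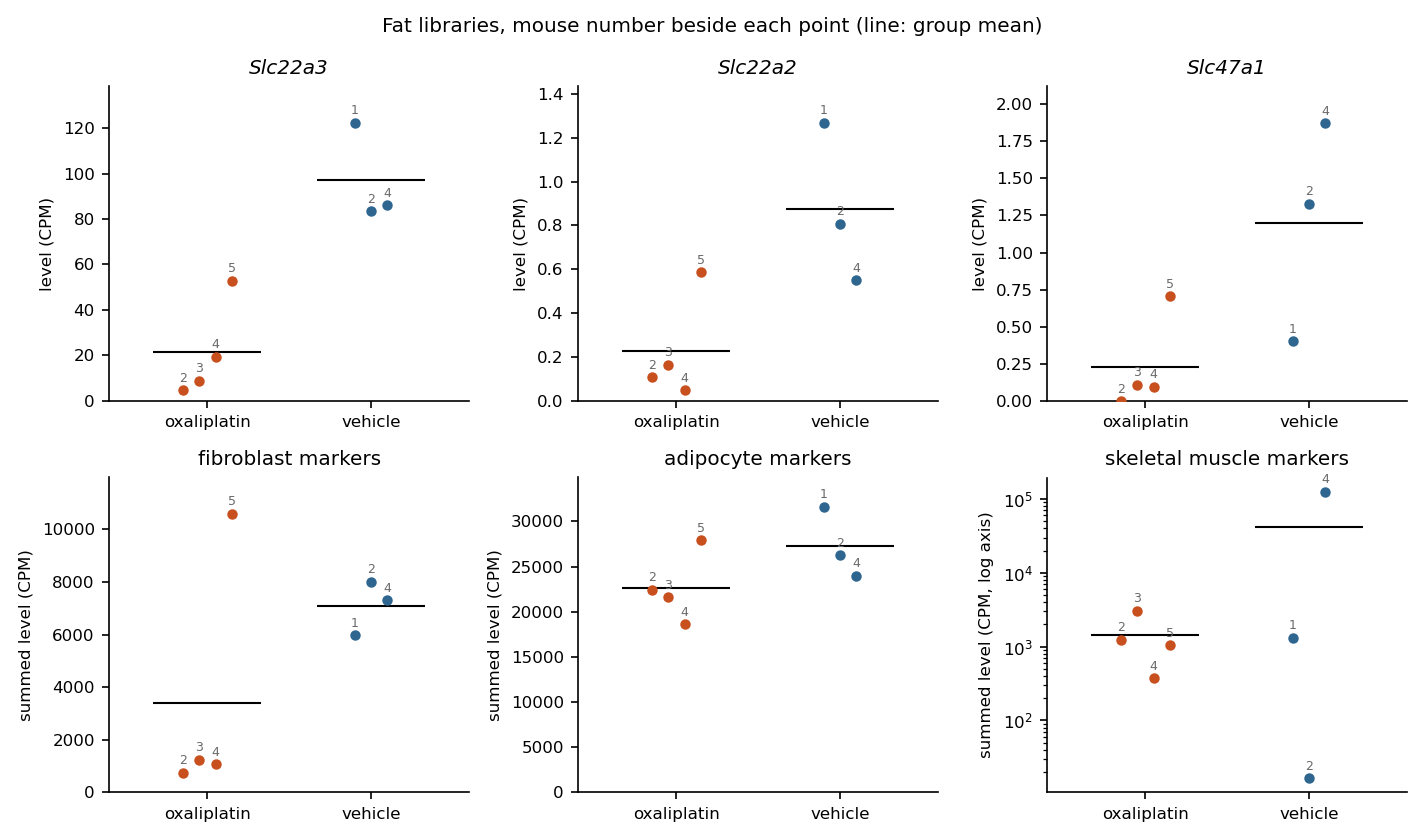
Fat libraries, oxaliplatin left of vehicle, with the mouse number beside each point and a line at the group mean: Slc22a3, Slc22a2 and Slc47a1 in CPM, and the summed CPM of fibroblast, adipocyte and skeletal muscle markers (the last on a log axis). Oxaliplatin mouse 5 is the highest oxaliplatin library for all 3 genes and for the fibroblast and adipocyte markers, and vehicle mouse 4 has 125340 CPM of skeletal muscle markers.

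Whether the effect of oxaliplatin differed between tissues was asked in a joint fit of each pair of tissues, as the effect in 1 tissue minus that in the other. The comparisons share libraries, so they are not independent of each other. Of the members, 0 of 6 passed for fat minus muscle, where 0.239% of all genes did, and 0 of 9 for fat minus hypothalamus, where 0.311% did. For muscle minus hypothalamus 0 of 6 passed, where 0.0689% did. At an unadjusted p under 0.05 there was 1 member in each comparison, against 17%, 19.7% and 9.33% of all genes in the order given, while 1, 1 and 0 members passed by DESeq2, which called 804, 1273 and 195 of all genes, and 0 in each by limma-voom. With the numbered mouse as a block across its tissues, in limma-voom, 0 members passed in each and 14, 264 and 14 of all genes did.

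For Slc47a1 the effect in fat minus that in muscle was -2.79 ± 0.85 on the log2 scale (unadjusted p = 0.00527, edgeR adjusted p = 0.138), and the DESeq2 adjusted p was 0.0156. Its effect in muscle minus that in hypothalamus was 1.02 ± 0.48 (edgeR adjusted p = 0.533), and that in fat minus hypothalamus was -1.83 ± 1.03 (edgeR adjusted p = 0.342). For Slc22a3 the effect in fat minus that in hypothalamus was -2.46 ± 0.85 (unadjusted p = 0.0126, edgeR adjusted p = 0.154), with a DESeq2 adjusted p of 0.0399. Fat minus muscle gave -1.61 ± 0.93 for Slc22a3 (edgeR adjusted p = 0.397), and muscle minus hypothalamus -0.82 ± 0.52 (edgeR adjusted p = 0.700). For Slc22a2, fat minus hypothalamus gave -1.62 ± 0.83 (edgeR adjusted p = 0.293).

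These differences turned on 1 fat library. Without fat oxaliplatin mouse 5, Slc22a3 (-2.58, edgeR adjusted p = 0.0316) and Slc47a1 (-4.34, edgeR adjusted p = 0.00941) passed for fat minus muscle. Without it, Slc22a2 (-2.66, edgeR adjusted p = 0.0265), Slc22a3 (-3.43, edgeR adjusted p = 0.00167) and Slc47a1 (-3.42, edgeR adjusted p = 0.0332) passed for fat minus hypothalamus. The numbers of genes called in those fits were 1626 and 3151, against 45 and 65 with every library. Fat oxaliplatin mouse 5 was the highest oxaliplatin fat library for these genes, so leaving it out lowers their fat estimates by definition.

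Fat and hypothalamus were prepared with the same kind of library and were compared in vehicle mice. The vehicle libraries of both tissues carry mouse numbers 1, 2 and 4, and the fit reported here did not pair them. A fit with the mouse number as a block is among the alternatives. Of the members 8 of 9 passed, 6 higher and 2 lower in fat, but 71.7% of all tested genes passed too, 37.5% higher and 34.2% lower, and the count is to be read against that share. The CPM given are scaled within each tissue, while the folds come from a joint fit with its own scaling and differ somewhat from the ratio of the CPM means. Slc22a3 stood at 97.4 ± 21.7 CPM in fat and 2.90 ± 0.516 CPM in hypothalamus (SD, n = 3 each), a fitted difference of 29.3-fold (log2 4.87 ± 0.21, edgeR adjusted p = 8.14e-07). Atp7b showed the opposite order, at 0.157 ± 0.0210 CPM in fat and 8.93 ± 0.123 CPM in hypothalamus (log2 -5.96 ± 0.23, edgeR adjusted p = 5.14e-07). Slc47a1 was also lower in fat, at 1.20 ± 0.744 CPM against 6.12 ± 1.94 CPM in hypothalamus (-2.51 ± 0.51, edgeR adjusted p = 0.00331).

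The other copper genes, all but Atp7b, were higher in fat by smaller amounts than Slc22a3. Slc31a2 was 3.08-fold higher in fat than in hypothalamus (log2 1.62 ± 0.16, edgeR adjusted p = 5.59e-05), Atp7a 1.76-fold (0.82 ± 0.15), Atox1 1.46-fold (0.54 ± 0.12) and Slc31a1 1.37-fold (0.46 ± 0.10), the last 3 with edgeR adjusted p of 0.00197, 0.00492 and 0.00484. Abcc2 was 3.06-fold higher in fat (1.61 ± 0.43, edgeR adjusted p = 0.0107), at 0.683 ± 0.175 CPM against 0.191 ± 0.0578 CPM. Slc22a2 did not pass, at 0.876 ± 0.364 CPM in fat and 0.861 ± 0.364 CPM in hypothalamus. Its fitted log2 difference was -0.18 (95% interval -1.23 to 0.86), below 0 although the CPM means, scaled per tissue, put fat slightly higher. DESeq2 and limma-voom also called 8 of 9 members each, among 13970 and 14295 of 19564 genes.

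**Figure D4:**
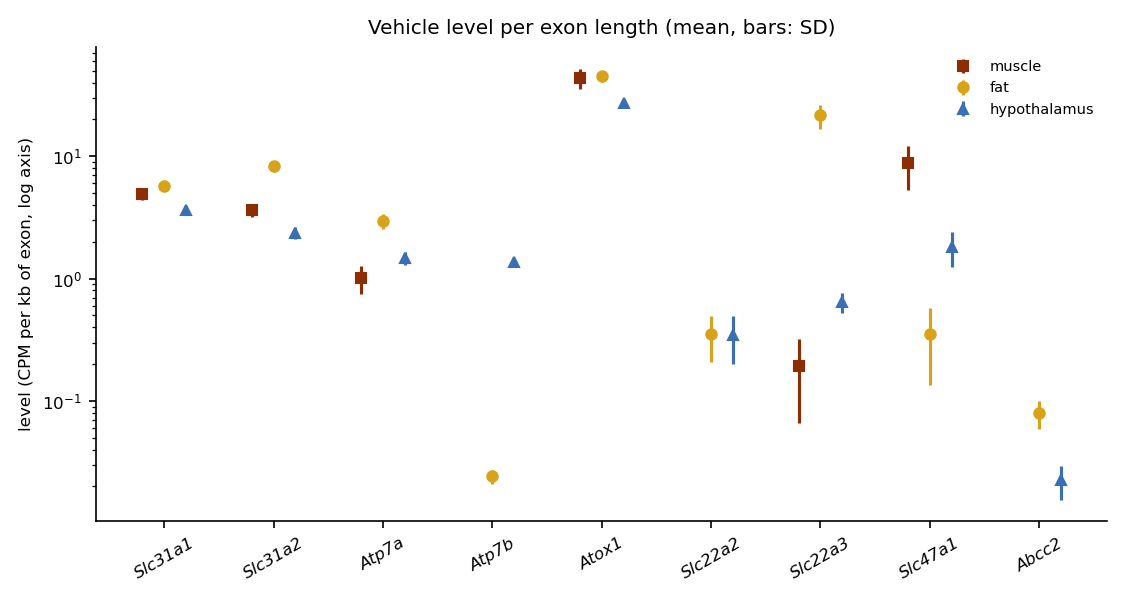
Mean vehicle level of each gene per kb of exon (CPM per kb, log axis) in muscle, fat and hypothalamus, with bars for the SD over libraries; muscle libraries were made with another kit, so their levels stand beside the others and are not compared. Atox1 is the highest member in each tissue, at 43.8, 45.2 and 27.2 CPM per kb, and Slc22a3 reaches 21.6 CPM per kb in fat against 0.642 in hypothalamus.

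Per length of exon, the order of the members differed from tissue to tissue. In vehicle fat the level was 45.2 CPM per kb for Atox1, followed by Slc22a3 at 21.6 ± 4.80, Slc31a2 at 8.30 ± 0.812, Slc31a1 at 5.67 ± 0.261 and Atp7a at 2.95 ± 0.394 CPM per kb (SD, n = 3). Slc47a1 at 0.355 ± 0.220 and Slc22a2 at 0.353 ± 0.146 CPM per kb did not differ beyond their spread, and Abcc2 and Atp7b were below 0.1 CPM per kb. With oxaliplatin the fat level of Slc22a3 was 4.76 ± 4.84 CPM per kb, which overlaps those of Slc31a1 and Slc31a2 within its SD.

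In vehicle hypothalamus Atox1 at 27.2 ± 2.16 CPM per kb was followed by Slc31a1 at 3.62 ± 0.187 and Slc31a2 at 2.36 ± 0.260 CPM per kb. Slc47a1 at 1.81 ± 0.573, Atp7a at 1.46 ± 0.178 and Atp7b at 1.37 ± 0.0189 CPM per kb lay within their spread of each other. Slc22a3 at 0.642 ± 0.114, Slc22a2 at 0.347 ± 0.147 and Abcc2 at 0.0224 ± 0.00678 CPM per kb came last. In vehicle muscle Atox1 at 43.8 ± 8.25 CPM per kb was followed by Slc47a1 at 8.77 ± 3.47 and Slc31a1 at 4.94 ± 0.538 CPM per kb, which did not differ beyond their spread. Slc31a2 at 3.63 ± 0.450, Atp7a at 1.004 ± 0.254 and Slc22a3 at 0.193 ± 0.127 CPM per kb followed (n = 4). Slc22a3 thus came next after Atox1 in fat and last of those listed in muscle, and Slc47a1, which stood with Slc31a1 in muscle, stood far below it in fat.

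Of 34 other genes of copper handling, 31 were tested in each tissue and 0 passed in any by edgeR. At an unadjusted p under 0.05 the muscle count was 4, that of fat 10 and that of hypothalamus 6, and the median log2 fold changes were -0.04, -0.22 and 0.08. Among all tested genes 9.59%, 26.1% and 10.2% lay under that p, and the fat count is close to that share. In muscle the smallest p values were those of Cox11, a copper delivery factor of cytochrome oxidase (-0.63 ± 0.21), the metallothionein Mt1 (1.74 ± 0.61) and the copper-binding prion protein gene Prnp (-0.29 ± 0.13), with edgeR adjusted p of 0.327, 0.400 and 0.480. Mt1 had 60.2 ± 49.8 CPM in oxaliplatin muscle and 18.0 ± 3.65 CPM in vehicle muscle, with overlapping groups. In fat they were Moxd1, a relative of dopamine beta-hydroxylase (-1.26 ± 0.26, edgeR adjusted p = 0.106), the peptide-amidating copper enzyme Pam (-0.91 ± 0.25, edgeR adjusted p = 0.118) and the extracellular superoxide dismutase Sod3 (-1.44 ± 0.44, edgeR adjusted p = 0.128). Sod3 had 139 ± 86.2 CPM in oxaliplatin fat and 377 ± 25.7 CPM in vehicle fat, and the groups did not overlap, as for 21.5% of all tested fat genes. In hypothalamus they were Mt2 (0.72 ± 0.22), and the metalloreductases Steap4 (1.45 ± 0.47) and Steap3 (-0.65 ± 0.21), with edgeR adjusted p of 0.372, 0.375 and 0.388.

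Of 30 other organic cation and drug transporters, the tests covered 19 for muscle, 20 for fat and 24 for hypothalamus, and 0 passed in any by edgeR. At an unadjusted p under 0.05 there were 0, 9 and 7, where 9.59%, 26.1% and 10.2% of all tested genes lay under it, and the medians were 0.03, 0.11 and 0.06. In fat the smallest p values were those of the serotonin transporter Slc6a4 (2.49 ± 0.64, edgeR adjusted p = 0.117), the drug efflux pump Abcg2 (0.90 ± 0.25, edgeR adjusted p = 0.120) and the organic anion transporter Slco3a1 (-1.17 ± 0.36, edgeR adjusted p = 0.129). Slc6a4 had 5.96 ± 3.90 CPM in oxaliplatin fat and 1.05 ± 0.458 CPM in vehicle fat. Abcg2 had 44.8 ± 13.3 CPM in oxaliplatin fat and 24.0 ± 1.61 CPM in vehicle fat. In hypothalamus they were the monocarboxylate transporter Slc16a1 (0.35 ± 0.09) and the efflux pumps Abcb1a (0.42 ± 0.11) and Abcc4 (0.50 ± 0.14), with edgeR adjusted p of 0.274, 0.295 and 0.334 and all 4 oxaliplatin libraries above all 3 vehicle libraries for each. These genes were named for their small p, and the groups did not overlap for 9.93% of all tested genes there. The sum of the 10 endothelial markers was also apart in hypothalamus, at 376 to 575 CPM with oxaliplatin and 215 to 231 CPM with vehicle. The part of that sum in the transporter values was not tested. In muscle the volume-regulated channel subunit Lrrc8a (0.24 ± 0.12), the carnitine transporter Slc22a5 (-0.29 ± 0.15) and the efflux pump Abcb1b (0.40 ± 0.22) had the smallest p, with edgeR adjusted p of at least 0.544.

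**Figure D5:**
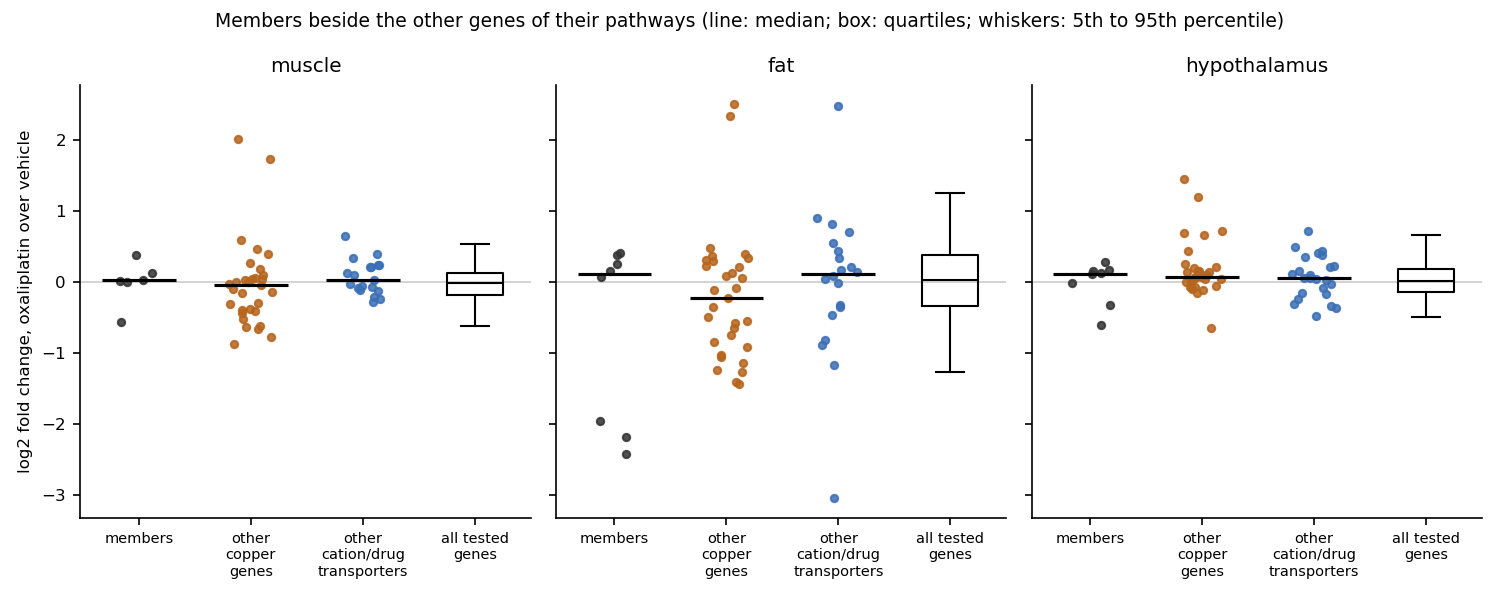
The log2 fold change of oxaliplatin over vehicle in each tissue for the tested members, the other copper genes and the other cation and drug transporters (points, line at the median) beside all tested genes (box for quartiles, whiskers from the 5th to the 95th percentile). The member medians are 0.03, 0.11 and 0.12 in muscle, fat and hypothalamus, and in fat Slc22a2, Slc22a3 and Slc47a1 lie below the whisker of all genes.

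Over the 23 libraries, after each tissue's mean was taken off, the genes most like each member were found among 10585 or 10586 genes by Pearson's r of log2 CPM, as a description only. The libraries of a tissue share a kit but differ in depth, and mouse numbers recur across tissues. The correlation includes any difference between the treatment groups. Slc22a3 was most like Aplp2 (r = 0.944) and S100a11 (r = 0.942), with r of 0.993 and 0.983 within fat and of -0.592 and 0.514 within hypothalamus. Slc47a1 was most like Car8 (r = 0.907) and Nqo2 (r = 0.894), with r of 0.712 and 0.705 within hypothalamus. Within fat r was 0.971 and 0.969, but Slc47a1 had only 0 to 34 counts there. Atp7a was most like Mga (r = 0.867) and Elk4 (r = 0.844), Atox1 like Hscb (r = 0.854) and Micos13 (r = 0.8289), Slc31a1 like Adat1 (r = 0.834) and Mdm4 (r = 0.820), and Slc31a2 like Oga (r = 0.724) and Polr3b (r = 0.706). Among the members themselves, r was 0.631 between Slc31a1 and Atp7a, 0.571 between Slc22a3 and Slc47a1, -0.604 between Slc31a1 and Slc22a3 and -0.564 between Atp7a and Atox1.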

How the data were processed

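RNA sequencing libraries of 3 mouse tissues were analysed from the deposited gene tables. Per the labels' protocols, muscle libraries were prepared by the SMARTer method, and those of both other tissues by RiboErase (ribosomal RNA depletion), so levels in muscle were not tested against the other tissues. The authors deposited expected counts, estimates of reads per gene that carry no scaling for depth. Of these values 45.73%, 41.41% and 49.09% were not whole in muscle, fat and hypothalamus, and they were rounded to whole numbers, where the plan had assumed counts. The tables list 20628, 26702 and 25623 genes, each with a sum of at least 10 over its libraries. The submitters' processing notes name STAR 2.5.1a, Partek and DESeq2 without their roles. The build is not stated in the labels or headers, but gene starts equalled those of GENCODE M21 (GRCm38) for at least 99.43% of shared identifiers, and coordinates count from 1 on that build. Whether counting used the strand is not stated.

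The members and gene lists were chosen with earlier results of these data known. Each tissue was fitted with edgeR 4.0.16 in R 4.3.3: filterByExpr (minimum count 10, minimum total 15, leaving 14737, 19870 and 18941 genes), TMM factors, and the robust quasi-likelihood F test, adjusted by Benjamini-Hochberg over all genes of the tissue at 0.05. Effects between tissues used an interaction term over the libraries of both. Levels are CPM on TMM-scaled library sizes, and per kb of the GENCODE exon union for levels between genes. The SE is the log2 fold change over the square root of F. Besides all 9 members, the rule named the 3 genes of smallest p per list and tissue and the 2 most alike genes per member, with at least 1 CPM in each tissue. Promoter sequences are from RefSeq, matched by symbol for 8 of 9 members.

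Alternatives were DESeq2 1.42.0, limma 3.58.1 voom, RLE factors, no filter, the mouse number as a block, 1 fit over the 3 tissues, each library left out, and muscle oxaliplatin mouse 5 as vehicle. Fat without oxaliplatin mouse 5, without vehicle mouse 4 and without both was counted as an alternative chosen after seeing the data. Every column matched a sample. Of 34 pairs of libraries of 1 group, none was a copy: chi-square over its degrees of freedom was at least 7.37. Mouse numbers are taken from the titles. Nothing states whether cages or days were shared. The script for the tests was checked on simulated data.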

Additional observations from a re-analysis of the deposited data

Results flagged for a closer look

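In 30 groups of 4 or 5 libraries of 1 member, tissue and treatment, 2 held a library farther from the others than Dixon's 95% limit, where chance gives about 1 group in 20. Atp7a was 12.1 CPM in vehicle muscle mouse 4, against 7.34 to 7.93 CPM in the other 3 vehicle libraries. Slc47a1 was 0.705 CPM in oxaliplatin fat mouse 5, against 0 to 0.110 CPM in the other 3 oxaliplatin libraries.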

How the results depend on the processing

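For the 38 log2 values of single members, 506 of 542 alternatives kept direction and side of the threshold, 11 passed the threshold where the reported value did not, 25 turned the direction of the value, and 0 lost a call. The count of members called was above 0 in fat by DESeq2 (1, Slc22a3) and in 1 fit over all 3 tissues (2, Slc22a3 at -2.16 with adjusted p = 0.00874 and Slc47a1 at -2.43 with adjusted p = 0.0374), and for fat minus muscle (1) and fat minus hypothalamus (1) by DESeq2. Leaving out libraries gave 0 to 2 members in fat, 0 to 2 for fat minus muscle and 0 to 3 for fat minus hypothalamus, and 5 to 6 of 8 fat members not overlapping where all libraries gave 4. Leaving out a library can only keep or raise the count of members not overlapping, by its definition. The cause of the other changes was not tested.

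Over all genes, muscle gave 24 calls, 254 by DESeq2, 13 by limma-voom, 42 without a filter, 3 with the mouse block, 91 in the fit over 3 tissues, 0 with mouse 5 as vehicle and 2 to 17 with a library left out. Fat gave 0 calls, 2434 by DESeq2, 2909 in the fit over 3 tissues and 0 to 4969 with a library left out. Hypothalamus gave 28 calls, 262 by DESeq2, 11 by limma-voom, 55 in the fit over 3 tissues and 0 to 655 with a library left out. Fat minus muscle gave 45 calls, 804 by DESeq2, 14 with the animal as block, 13 with mouse 5 as vehicle and 14 to 1626 with a library left out. Fat minus hypothalamus gave 65 calls, 1273 by DESeq2, 104 by limma-voom, 264 with the animal as block and 3 to 3151 with a library left out. Muscle minus hypothalamus gave 12 calls, 195 by DESeq2, 0 with mouse 5 as vehicle and 2 to 110 with a library left out.

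Values that turned direction were Slc31a2 in muscle (0.0027 with RLE factors, 0.0032 by DESeq2, 0.0024 by limma-voom, 0.0090 without a filter, 0.010 in the fit over 3 tissues), Slc31a1 and Atp7a in muscle with mouse 5 as vehicle (-0.0028 and -0.024) and Atp7a in hypothalamus with the mouse block (-0.085). With a library left out, Slc31a1 ran from -0.038 to 0.090, Slc31a2 from -0.064 to 0.071 and Atox1 from -0.081 to 0.14 in muscle. Atox1 ran from -0.011 to 0.15 in fat, Slc31a1 from -0.055 to 0.025 and Slc22a2 from -0.58 to 0.055 in hypothalamus, and Slc22a2 from -0.52 to 0.17 in fat over hypothalamus.

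Correlations of deviations between oxaliplatin and vehicle libraries of 1 number were -0.251 to 0.217 in muscle, -0.272 to -0.173 in fat and 0.00528 to 0.0361 in hypothalamus. With 2 to 4 such pairs per tissue, these values cannot settle whether the numbers pair the treatments. Between tissues of 1 numbered mouse the correlations were 0.0633 to 0.181 with oxaliplatin and 0.0346 to 0.0704 with vehicle for fat and hypothalamus, -0.265 to -0.0525 and -0.117 to 0.0926 for fat and muscle, and -0.15 to -0.0762 and -0.0431 to 0.0863 for muscle and hypothalamus. The block changed no call of a member, with 0 called in each tissue and 8 in fat over hypothalamus. Groups of 3 to 5 libraries and counts under 20 for Slc22a2, Slc47a1, Abcc2 and Atp7b in 1 or more tissues limit the smallest difference that passes the test.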
